A study of Mus musculus with 6 samples.

Results

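The genes described here encode molecular chaperones and their partners: the heat shock proteins of the HSP110, HSP70, HSP90 and small HSP families, the DnaJ (HSP40) proteins, the mitochondrial chaperonin, the cytosolic chaperonin CCT/TRiC and the BAG proteins. They were chosen by gene symbol alone, and their transcripts in the deposited table were summed per symbol, which gave 77 genes of the 13659 symbols in the table. Of these, 69 had a mean of at least 1 FPKM (fragments per kilobase of transcript and per library of standard size) and were tested among 11628 genes. The cells were MC3T3-E1 subclone 4, an osteoblast-like mouse line from calvaria, and all groups share that genetic background. There were 3 libraries of vehicle-treated cells and 3 of cells given PTH(1-34), a peptide from the amino terminus of parathyroid hormone, and the labels name no other agent or allele. The sample characteristics give the treatment time as 30 min and the treatment protocol gives 2 h, so the time is uncertain. All libraries are of 1 subclone, and nothing in the labels ties them to separate cultures. The p-values below therefore cover the spread of these libraries alone, which may be technical.

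HSP70 proteins bind unfolded segments of other proteins in cycles driven by ATP. DnaJ proteins deliver the substrates and start ATP hydrolysis, while HSP110 and BAG proteins release the nucleotide; HSP90 takes over late-folding clients and the chaperonins enclose whole chains. Many of these genes are switched on by heat shock factor 1, which binds repeated GAA and TTC units in promoters, and those of the endoplasmic reticulum (ER) by the unfolded protein response. Osteoblasts secrete large amounts of collagen and depend on the ER chaperones for it. PTH acts on its receptor through cyclic AMP and protein kinase A, which phosphorylates factors that bind the cyclic AMP response element, TGACGTCA.

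The 5 promoters below hold heat shock units or the cyclic AMP core. They belong to Hsph1, Bag3, Dnajb4 and Dnajb6, which were higher with PTH, and to Hspe1, which was not as deposited. This is a selection: Dnajb2, also higher, holds the cyclic AMP core and no heat shock unit and is not shown. A gene with several annotated starts is shown by a single one. Each promoter shown runs from 250 bases before to 50 after an annotated start (RefSeq, GRCm38.p6), 5′ to 3′ on the gene's strand. Capitals mark GAANNTTC or TTCNNGAA, in which a GAA and a TTC unit are spaced by 2 bases, and TGACG or its complement CGTCA. Runs of capitals longer than 8 bases are overlapping matches, and 3 units in a row form the full heat shock element.
Hsph1, chr5:149636266-149636565, minus strand: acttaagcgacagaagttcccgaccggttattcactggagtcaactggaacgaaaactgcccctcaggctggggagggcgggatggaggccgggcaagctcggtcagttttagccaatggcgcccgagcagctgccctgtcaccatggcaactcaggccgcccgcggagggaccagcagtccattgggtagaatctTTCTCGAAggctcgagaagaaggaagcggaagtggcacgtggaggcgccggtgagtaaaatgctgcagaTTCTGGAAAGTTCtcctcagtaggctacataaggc
Bag3, chr7:128523333-128523632, plus strand: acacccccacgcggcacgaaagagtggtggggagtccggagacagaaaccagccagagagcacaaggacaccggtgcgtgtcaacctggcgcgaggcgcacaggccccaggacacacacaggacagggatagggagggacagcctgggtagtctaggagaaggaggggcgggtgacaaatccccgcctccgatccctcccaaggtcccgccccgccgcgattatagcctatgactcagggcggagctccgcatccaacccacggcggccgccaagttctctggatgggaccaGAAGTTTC
Dnajb4, chr3:152193796-152194095, minus strand: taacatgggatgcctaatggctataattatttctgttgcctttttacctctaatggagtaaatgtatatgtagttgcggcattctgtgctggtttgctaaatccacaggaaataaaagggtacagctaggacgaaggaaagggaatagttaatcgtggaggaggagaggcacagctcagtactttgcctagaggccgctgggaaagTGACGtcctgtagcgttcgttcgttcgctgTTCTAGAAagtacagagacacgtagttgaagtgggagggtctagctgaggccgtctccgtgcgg
Dnajb6, chr5:29735648-29735947, plus strand: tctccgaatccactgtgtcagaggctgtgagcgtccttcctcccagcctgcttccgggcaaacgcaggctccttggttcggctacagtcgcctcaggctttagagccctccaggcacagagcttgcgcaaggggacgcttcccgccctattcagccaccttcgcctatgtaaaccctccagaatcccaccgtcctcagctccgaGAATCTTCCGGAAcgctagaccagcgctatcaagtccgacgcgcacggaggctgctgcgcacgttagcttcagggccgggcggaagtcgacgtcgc
Hspe1, chr1:55087898-55088197, plus strand: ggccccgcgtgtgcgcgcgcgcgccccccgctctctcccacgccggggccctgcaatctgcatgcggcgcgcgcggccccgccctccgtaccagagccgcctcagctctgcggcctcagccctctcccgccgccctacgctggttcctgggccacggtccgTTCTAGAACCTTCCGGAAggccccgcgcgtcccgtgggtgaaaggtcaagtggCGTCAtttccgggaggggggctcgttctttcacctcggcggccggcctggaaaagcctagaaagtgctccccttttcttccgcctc
The Hsph1 window holds a 3-unit element that begins 16 bases after the start and a 2-unit match 54 bases before it. In Bag3 the 2-unit match lies 43 bases after the start, at the very end of the window. Dnajb4 has a 2-unit match 14 bases before this start and a TGACG core 44 bases before it. Its other annotated start has cores 62 and 43 bases before it and no heat shock unit (chr3:152210034-152210333, not shown). The Dnajb6 element begins 46 bases before its start. Hspe1 holds overlapping 3-unit elements that begin 89 and 84 bases before its start, in a stretch that it shares with Hspd1 on the opposite strand.

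The FPKM totals of the libraries ranged from 618221 to 853916, and the deposited values give no read counts, so depth is unknown and no counting interval is given. The median FPKM of tested genes was 11.8 to 11.9 in vehicle libraries and 10.8 to 10.9 in PTH libraries. The median log2 difference (PTH minus vehicle) over all tested genes was -0.15, so changes are also given after each library was centred on its median, which adds 0.12. The 4 PTH response genes Fos, Nr4a1, Crem and Pde4b were all higher, by 4.69 to 5.68 on the log2 scale. All 8 osteoblast markers examined had a mean of at least 1 FPKM. Sp7 and Dlx5 were lower (log2 differences of -2.56 and -0.49), and Bglap and Runx2 were higher; Dlx5 lost its call after centring, and both it and Runx2 without single libraries. Of 20 markers of other cell types, 6 were in the table and 2, Lyz2 and Col2a1, reached a mean of 1 FPKM without passing the test. Library 1 was lowest of its group for Ibsp, at 28.5 FPKM with vehicle and 22.4 with PTH against 58.6 to 99.0 in the other libraries. In bulk RNA, a change in the number of cells of a kind and a change in RNA per cell cannot be told apart.

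Most chaperone genes did not pass the test, and 3 of them, Hsph1, Bag3 and Dnajb4, rose by more than 2-fold. Of the 69 tested, 11 were higher with PTH, 16 were lower and 42 did not pass (limma on log2(FPKM + 0.5), adjusted p under 0.05 over all tested genes). Over all genes, 10.8% were called higher and 41.0% lower. The chaperone share of higher calls lay above this background, also after centring and with the library number as a block. Their share of lower calls lay below it. Whether these shares differ from the background was not tested. The median log2 difference was -0.02 over the 69 and -0.15 over all tested genes. After centring, 22 were higher and 9 lower, against 18.3% and 24.0% of all genes, with medians of 0.10 and -0.03. With the library number as a block, 15 were higher, against 13.8% of all genes. The PTH libraries lay wholly above the vehicle libraries for 12 of the 69 and wholly below for 21, against 13.1% and 47.5% of all genes. A rise of at least 1 on the log2 scale was seen for 3 of them, Hsph1, Bag3 and Dnajb4, and for 3.09% of all genes. Replicates were close: the median coefficient of variation over the 69 was 4.23% in vehicle and 4.96% in PTH libraries.

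**Figure D1:**
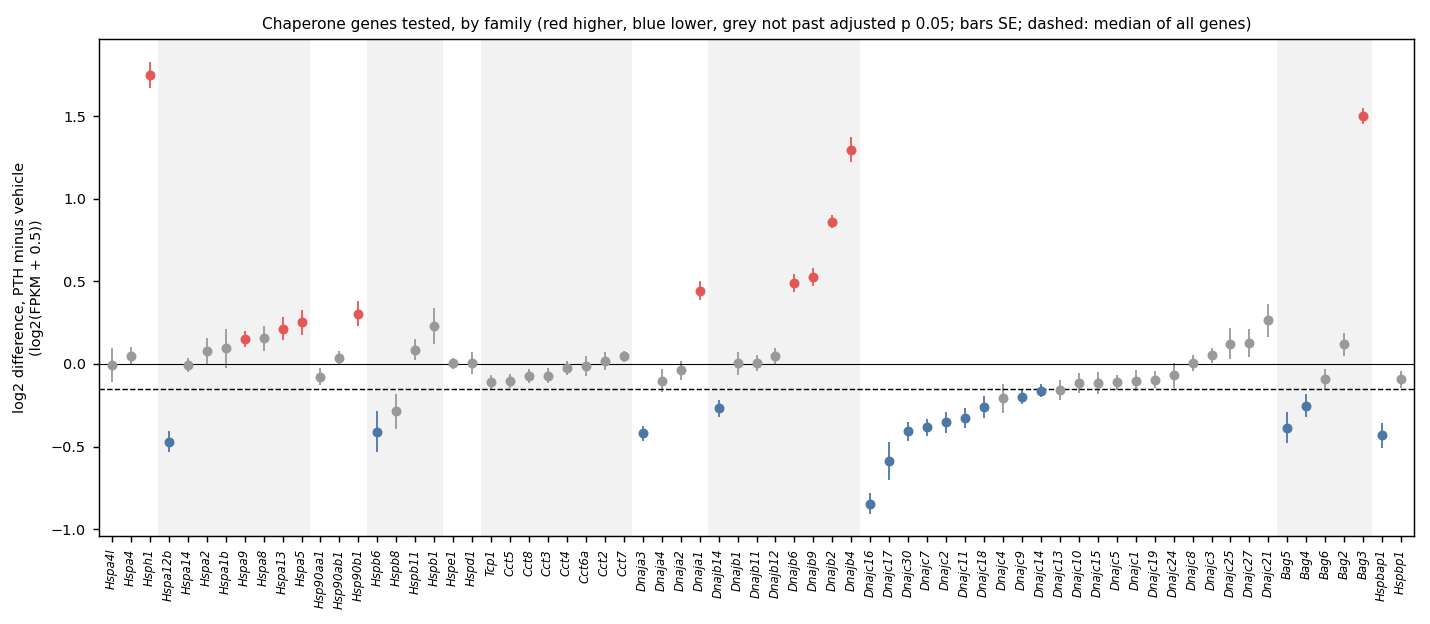
Log2 difference in expression, PTH minus vehicle on the log2(FPKM + 0.5) scale, for the 69 tested chaperone genes, ordered by family (shaded bands) and by value; bars are standard errors, red and blue mark genes called higher and lower, grey marks the rest, and the dashed line is the median of all tested genes at -0.15. The 4 highest points are Hsph1, Bag3, Dnajb4 and Dnajb2, most DNAJC genes lie below 0, and the CCT genes lie between -0.11 and 0.05.

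The largest rise was that of Hsph1, an HSP110 protein that acts as a nucleotide exchange factor of HSP70 and helps dissolve aggregates (ENSMUSG00000029657, chr5:149614287-149636376). Its level was 29.4, 31.9 and 32.3 FPKM in the vehicle libraries and 110.4, 94.4 and 114 FPKM in the PTH libraries. Each PTH library was thus far above every vehicle library. The means were 31.2 ± 1.55 and 106.2 ± 10.4 FPKM (SD, n = 3 each), a 3.40-fold difference and 1.75 on the log2 scale (SE 0.08, limma adjusted p 1.64e-05). An exact two-sided permutation test on this gene alone had p = 0.1, which is the lowest value possible with 3 libraries on each side. The other HSP110 genes, Hspa4 and Hspa4l, did not pass: their log2 differences were 0.05 and -0.01.

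Bag3, the BAG protein that links HSP70 to small HSPs and to selective autophagy, was at 25.2, 27.0 and 26.6 FPKM with vehicle and at 78.4, 73.0 and 74.3 FPKM with PTH. The groups did not overlap, and the rise of 1.5 on the log2 scale had an SE of 0.05 (limma adjusted p 4.06e-06). Dnajb4, a DnaJ protein of the cytosol, was at 11.4, 11.7 and 10.9 FPKM with vehicle and 26.4, 31.9 and 27.7 FPKM with PTH, a rise of 1.30 on the log2 scale (SE 0.08, limma adjusted p 4.94e-05). Every PTH library again exceeded every vehicle library. Dnajb2, a DnaJ protein known for directing ubiquitinated clients to the proteasome, was at 12.8, 12.4 and 12.6 FPKM with vehicle and at 23.3, 23.3 and 23.2 FPKM with PTH. Its libraries agreed within a group more closely than those of the other 3 genes, and its log2 difference was 0.86 (SE 0.04, limma adjusted p 1.64e-05). The annotated gene of Bag3 overlaps a further transcribed locus on its own strand, and whether reads were divided between them is not given in the sources used here.

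**Figure D2:**
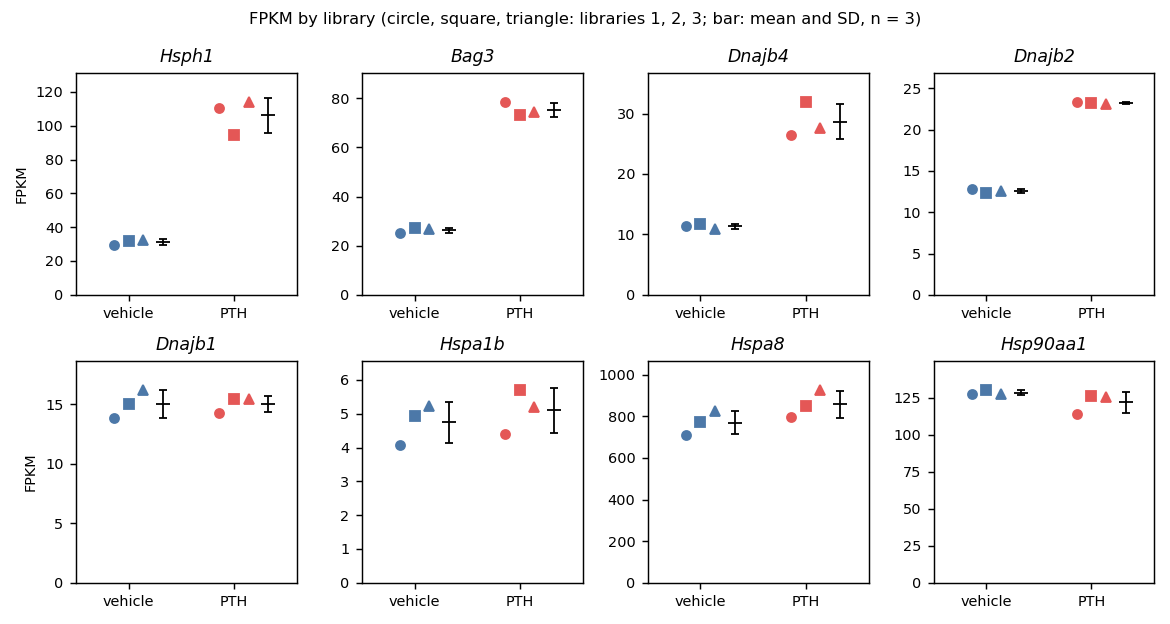
Expression in FPKM (linear axes from 0) of 8 chaperone genes in each library; blue is vehicle, red is PTH, marker shape is the library number, and the bar beside each group is its mean and SD (n = 3). In the upper row, Hsph1, Bag3, Dnajb4 and Dnajb2, the groups are apart; in the lower row, Dnajb1, Hspa1b and Hspa8 overlap between groups, and Hsp90aa1 lies slightly lower with PTH without passing the test.

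A further 3 DnaJ genes rose by smaller amounts. Dnajb9, an ER DnaJ protein that regulates the stress sensor IRE1, went from 7.98, 7.54 and 7.63 FPKM to 10.8, 11.9 and 11.3 FPKM, a log2 difference of 0.53 (SE 0.05, limma adjusted p 0.000448). Dnajb6, which suppresses the aggregation of polyglutamine proteins, went from 42.2, 44.8 and 41.8 FPKM to 60.2, 64.2 and 57.1 FPKM, a log2 difference of 0.49 (SE 0.06, limma adjusted p 0.000649). Dnaja1, a farnesylated partner of cytosolic HSP70, went from 103, 113 and 105 FPKM to 137, 145 and 155 FPKM, a log2 difference of 0.44 (SE 0.06, limma adjusted p 0.00117). In all 3 genes the lowest PTH library exceeded the highest vehicle library. Hsph1, Bag3, Dnajb4, Dnajb2, Dnajb9, Dnajb6 and Dnaja1 are the 7 genes that were called higher in all 18 alternative fits.

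The deposited table lists 5 Hsph1 transcripts, and all 5 were tested. The main one, ENSMUST00000074846, is annotated in GENCODE M21 as Hsph1-201, a protein-coding transcript of 17 exons. It was at 21.5, 19.8 and 19.7 FPKM with vehicle and at 77.2, 65.4 and 82.1 FPKM with PTH, a log2 difference of 1.85 (SE 0.09, limma adjusted p 6.48e-05 over all tested transcripts). It made up 60.9% to 73.0% of the gene's FPKM with vehicle and 69.3% to 72.1% with PTH. Its coding sequence of 2442 bases lacks an exon of 132 bases, or 44 codons, that is exon 12 of 18 in the longer transcript ENSMUST00000202361 of the same annotation. In mammals the shorter protein is known as the HSP105 beta form, induced by heat, and the longer one as the constitutive alpha form. ENSMUST00000202361 itself is not among the 5 deposited transcripts, and which protein form changed was not tested. That exon is shown in whole, without capitals, because it is what separates the forms, 5′ to 3′ on the minus strand of GRCm38.
Hsph1 exon 12 of ENSMUST00000202361, chr5:149623465-149623596: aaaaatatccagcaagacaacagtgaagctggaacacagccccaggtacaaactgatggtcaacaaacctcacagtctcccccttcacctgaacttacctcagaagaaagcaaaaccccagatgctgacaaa

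The identifiers of the other 4 Hsph1 transcripts are not in GENCODE M21, so their structure is not described here. ENSMUST00000137534 was at 0.797, 0.536 and 1.12 FPKM with vehicle and at 8.66, 8.16 and 9.45 FPKM with PTH, a log2 difference of 2.83. It reached the minimum mean of 1 FPKM only through the PTH libraries, so its test is not used. Its part of the gene's FPKM was 1.68% to 3.47% with vehicle and 7.84% to 8.65% with PTH. ENSMUST00000110498 was at 5.53, 5.95 and 7.73 FPKM with vehicle and at 19.0, 15.4 and 15.2 FPKM with PTH, a log2 difference of 1.31. ENSMUST00000076410 was at 1.28, 1.99 and 0.848 FPKM with vehicle and at 5.55, 5.39 and 7.17 FPKM with PTH, a log2 difference of 1.84. Both ENSMUST00000110498 and ENSMUST00000076410 rose, and for all 3 of these transcripts PTH libraries lay above vehicle libraries.

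ENSMUST00000132412 went the other way: it was at 0.341, 3.62 and 2.94 FPKM with vehicle and under 0.001 FPKM in each PTH library. It reached the minimum only through the vehicle libraries, so its test is not used. Values this close to 0 may be estimates that failed, so no fold is given. By limma's diffSplice, transcripts moved by different amounts in Hsph1, Hspa4 and Hspe1, or 3 of 36 chaperone genes, against 11.7% of 4818 genes with at least 2 tested transcripts. The Hsph1 call has ENSMUST00000132412 and ENSMUST00000137534 as its most extreme transcripts, was lost with a minimum of 5 FPKM, and is not used as a result. Hspa4 was lost without vehicle 2 or vehicle 3, with a minimum of 5 FPKM and with TPM. Hspe1 was lost without any single library other than PTH 3, without both number-1 libraries, and with quantile normalisation, cyclic loess or TPM. On simulated data diffSplice called more unchanged genes than its threshold allows, so another test is given beside it. With each transcript set against the sum of the others and given its own variance, a test chosen after the data were seen, 3.55% of genes were called. Hsph1 was the only chaperone gene among them, with the same pair of transcripts the most extreme, so that call is not used either. Over all transcripts of chaperone genes, 22 of 176 tested were higher and 22 lower, against 8.13% and 22.2% of all tested transcripts. The 176 include ENSMUST00000132412 and ENSMUST00000137534, whose own tests are not used. The counts and shares were not repeated without transcripts that reached the minimum only through a single group. The higher count was 13 without PTH 2 or PTH 3, and the lower count was 12 without vehicle 2 or vehicle 3 and 14 without PTH 3.

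**Figure D3:**
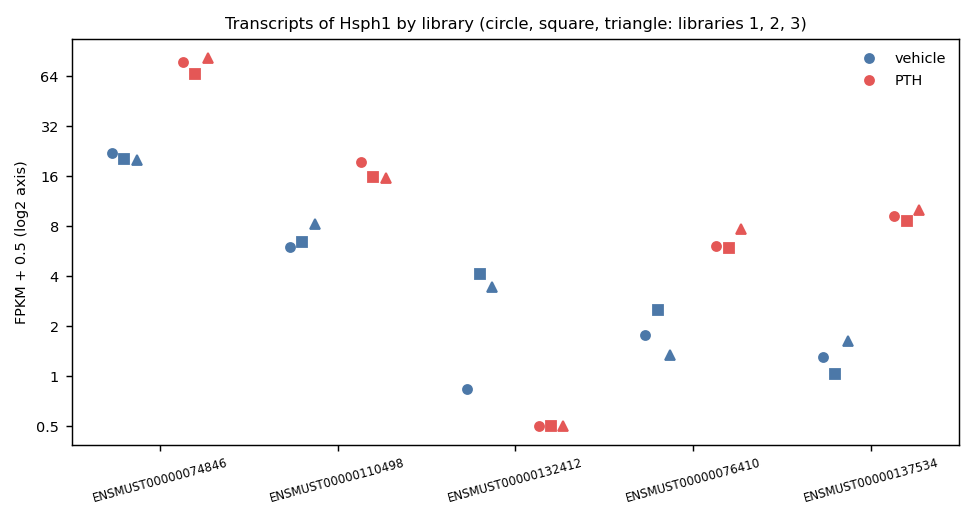
FPKM + 0.5 on a log2 axis for the 5 Hsph1 transcripts of the deposited table in each library (blue vehicle, red PTH, marker shape the library number). PTH libraries lie above vehicle libraries for 4 transcripts, and for ENSMUST00000132412 they lie at 0.5, which is the added constant, below all vehicle libraries.

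Among inducible genes used as marks of a heat shock response, Dnajb1, Hspa1b and Hspb1 did not pass the test as deposited. Hsph1, Bag3 and Dnaja1, which are heat shock targets too, were called higher, as described above. Dnajb1, the main heat-induced DnaJ protein, was at 13.9, 15 and 16.2 FPKM with vehicle and 14.3, 15.4 and 15.4 FPKM with PTH, and its log2 difference was 0.00 (SE 0.07). Hspa1b, the inducible HSP70, was at 4.07, 4.94 and 5.22 FPKM with vehicle and 4.40, 5.70 and 5.21 FPKM with PTH, and its log2 difference was 0.10 (SE 0.12). The groups overlapped for both. Its near-identical copy Hspa1a was below 1 FPKM, and reads of the pair may be divided arbitrarily. Hspb1, a heat-induced small HSP, was at 12.4 to 15.5 FPKM with vehicle and 14 to 17.1 FPKM with PTH (log2 0.23, limma adjusted p 0.125). Hspb1 was called higher after centring and with the library number as a block (adjusted p 0.0417). With block and centring together all 3 were called higher, Dnajb1 by 0.13 on the log2 scale (limma adjusted p 0.0434), Hspa1b by 0.22 (0.0219) and Hspb1 by 0.35 (0.00891).

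Nor did the cytosolic HSP90 genes or Hspa8 pass as deposited. Hsp90aa1, the inducible cytosolic HSP90, was at 127, 130 and 127 FPKM with vehicle and 114, 126 and 125 FPKM with PTH (log2 -0.08, adjusted p 0.24). Hsp90ab1, its constitutive counterpart, was at 799 to 839 FPKM with vehicle and 812 to 856 FPKM with PTH (log2 0.04). It was called higher after centring (log2 0.16, limma adjusted p 0.0214). Hspa8, the constitutive HSP70, was at 712, 773 and 825 FPKM with vehicle and 798, 849 and 927 FPKM with PTH (log2 0.16, adjusted p 0.126). In both groups Hspa8 was lowest in library 1 and highest in library 3, and with the library number as a block it was called higher (limma adjusted p 0.00603), as it was after centring. The HSP70 genes Hspa2 and Hspa14 did not pass (log2 0.08 and -0.01, limma adjusted p 0.445 and 0.888). Hspa2 was called higher in 3 of 18 alternative fits. Of the 14 tested chaperone genes on the list of heat shock targets, 3 were higher (Hsph1, Dnaja1 and Bag3) and 0 lower by limma's adjusted p, with 3 and 1 at an unadjusted p under 0.05; after centring 8 were higher. Of all genes, 10.8% were higher and 41.0% lower, and after centring 18.3% were higher. The list was drawn up from textbook targets with earlier results of these data known.

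Heat shock factor targets outside the chaperone families were counted next. Of 10 tested, 0 were higher and 4 lower, namely Cryab (-0.26), Cacybp (-0.17), Chordc1 (-0.16) and Stip1 (-0.12, all on the log2 scale), by limma's adjusted p; at an unadjusted p under 0.05, 1 was higher and 5 lower. The lower count is near the share of all genes called lower, 41.0%. After centring, Ubb and Hmox1 were higher. The 4 lower calls did not hold after centring, and those of Chordc1 and Stip1 were also lost when single libraries were left out (Chordc1 up to adjusted p 0.108 without vehicle 1, Stip1 up to 0.08 without vehicle 2). Hsf1, the factor itself, was at 17.1, 17.5 and 18.6 FPKM with vehicle and at 13.1, 14 and 14.2 FPKM with PTH. It was lower by 0.35 on the log2 scale, with no overlap (SE 0.05, limma adjusted p 0.00203), and by 0.23 after centring, still past the test. The Hsf1 call held in 17 of 18 alternative fits and under 3 of 4 scalings (limma adjusted p 0.414 where it was lost). The list of heat shock factors had 4 tested genes: Hsf1, Hsf2, Hsf4 and Hsbp1, which encodes a factor-binding protein. Hsf1 was its only call without a block, where 41.0% of all genes were called lower. With the library number as a block, Hsf2 and Hsbp1 were also called lower (limma adjusted p 0.0412 and 0.02).

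Of 11 tested genes on the list of ER chaperones, 4 were higher, by small amounts, against 10.8% of all genes. That list does not hold Dnajc16, which is described further on and was lower. Hsp90b1 (GRP94), the ER HSP90, was at 512, 472 and 445 FPKM with vehicle and 641, 562 and 564 FPKM with PTH, a log2 difference of 0.30 (SE 0.07, limma adjusted p 0.013). Hspa5 (BiP), the ER HSP70 and a hallmark target of the unfolded protein response, was at 360, 417 and 372 FPKM with vehicle and 420, 481 and 467 FPKM with PTH. The groups did not overlap, though vehicle 2 at 417 FPKM and PTH 1 at 420 FPKM lay close together (log2 0.25, SE 0.07, limma adjusted p 0.0279). Hspa13, a microsomal HSP70, went from 17.6, 16.3 and 15.3 FPKM to 20.3, 18.9 and 18.1 FPKM (log2 0.21, adjusted p 0.035). The remaining higher gene is Dnajb9; Dnajb14 (-0.27) was lower, a call lost after centring; 6 were higher after centring, against 18.3% of all genes.

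The small ER calls depended on the libraries and the scaling. The call of Hspa5 was lost in 7 of 18 alternative fits, among them each without vehicle 1, vehicle 3, PTH 2 or PTH 3 (limma adjusted p up to 0.0885). That of Hspa13 was lost in 6, among them each without vehicle 2, vehicle 3, PTH 1 or PTH 2 (adjusted p up to 0.108), and that of Hsp90b1 in 1, the scaling to TPM (transcript values rescaled to a fixed total per library). The ER DnaJ genes Dnajb11, Dnajc3 and Dnajc10 did not pass, with log2 differences of 0.01, 0.05 and -0.11. Of 15 other ER folding genes tested, 3 were higher, against 10.8% of all genes. They were Hyou1 (0.19), the ER HSP110, Ero1l (0.18), which reoxidises disulfide isomerases, and Manf (0.16). Sdf2l1 was lower (-0.22), where 41.0% of all genes were called lower, and this did not hold after centring. After centring 5 were higher, against 18.3% of all genes. The calls of Hyou1, Manf and Sdf2l1 were lost without vehicle 1, vehicle 3, PTH 2 or PTH 3, and that of Ero1l without any of these or vehicle 2 (adjusted p up to 0.129). The abundant Calr, Canx, Pdia3 and P4hb had log2 differences between -0.01 and 0.03, and Serpinh1, the collagen chaperone, one of -0.09.

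**Figure D4:**
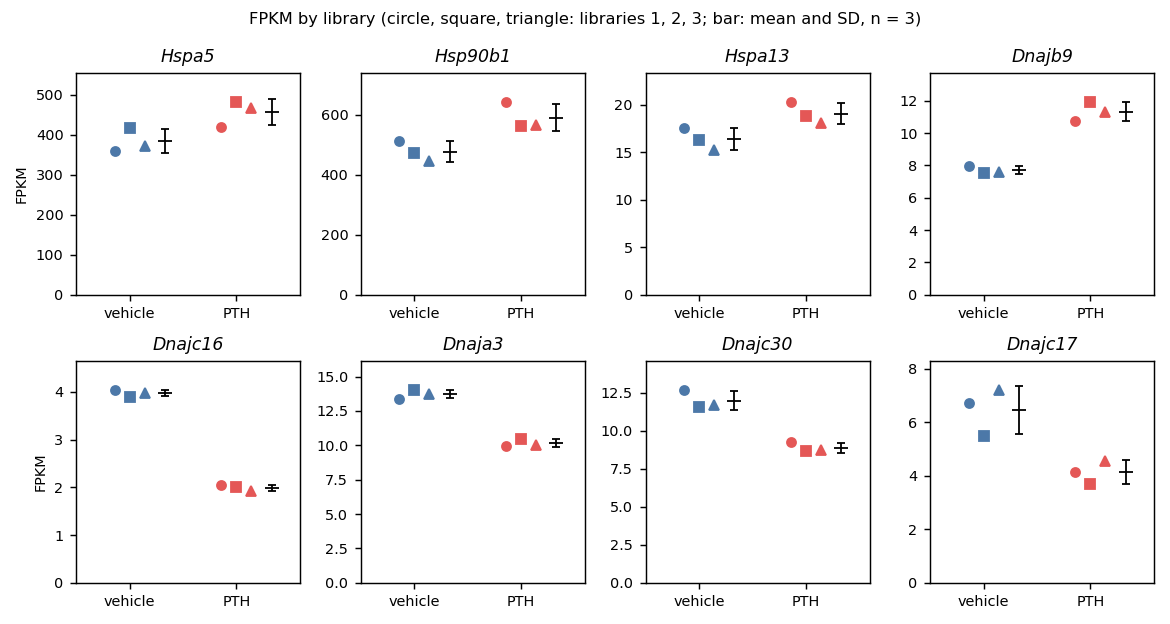
Expression in FPKM (linear axes from 0) of 4 genes called higher, Hspa5, Hsp90b1, Hspa13 and Dnajb9, and 4 called lower, Dnajc16, Dnaja3, Dnajc30 and Dnajc17, in each library; blue is vehicle, red is PTH, marker shape is the library number, and the bar is the mean and SD (n = 3). The groups are close for Hspa5 and far apart for Dnajc16, which is at 3.90 to 4.04 FPKM with vehicle and 1.93 to 2.04 FPKM with PTH.

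The clearest fall was that of Dnajc16, a membrane DnaJ protein of the ER (ENSMUSG00000040697, chr4:141760189-141790931). It was at 4.04, 3.90 and 3.97 FPKM with vehicle and at 2.04, 2.01 and 1.93 FPKM with PTH. Every PTH library was far below every vehicle library, with a log2 difference of -0.84 (SE 0.06, limma adjusted p 0.00011). It is the only chaperone gene called lower in all 18 alternative fits. Dnajc17, a nuclear DnaJ protein linked to splicing, was at 6.72, 5.48 and 7.21 FPKM with vehicle and 4.14, 3.68 and 4.57 FPKM with PTH (log2 -0.59, adjusted p 0.00559). Its coefficient of variation was the largest of all 69 in the vehicle group, and its locus overlaps Zfyve19 on the opposite strand.

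The DNAJC family, the DnaJ proteins that share only the J domain, held 9 of the 16 lower calls: by limma's adjusted p, 0 of 22 tested were higher and 9 lower (1 and 11 at an unadjusted p under 0.05), and 2 were higher and 6 lower after centring. The share of all genes called lower was 41.0%, or 24.0% after centring, so the lower count of the family lies near the background. Dnajc30, a mitochondrial inner membrane protein, was at 11.5 to 12.7 FPKM with vehicle and 8.65 to 9.27 FPKM with PTH (log2 -0.41). Dnajc7, which binds both HSP70 and HSP90, was at 71.4 to 78.2 and 55.2 to 59.1 FPKM (log2 -0.38). Dnajc2, the ribosome-bound zuotin homologue, and Dnajc11, of the mitochondrial cristae, were lower by 0.35 and 0.33 on the log2 scale. Groups did not overlap for these 4 genes. The call of Dnajc11 was lost with quantile normalisation, cyclic loess and TPM, and that of Dnajc2 with cyclic loess and TPM. Dnajc18 (-0.26), Dnajc9 (-0.20), a histone co-chaperone, and Dnajc14 (-0.16) lost their calls after centring, and Dnajc18 also without vehicle 3, PTH 2 or PTH 3 (adjusted p up to 0.0578). With the library number as a block, Dnajc4, Dnajc5, Dnajc10 and Dnajc13 were also called lower and Dnajc21 and Dnajc25 higher (adjusted p 0.00424 to 0.0452).

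Lower calls outside that family were few, where 41.0% of all genes were called lower. Dnaja3 (Tid1), the mitochondrial DnaJ partner of Hspa9, went from 13.4, 14 and 13.7 FPKM to 9.93, 10.5 and 10.0 FPKM, without overlap (log2 -0.42, SE 0.05, limma adjusted p 0.000522). Hspa12b, a distant HSP70 known from endothelial cells, was at 6.39 to 7.21 FPKM with vehicle and 4.57 to 5 FPKM with PTH (log2 -0.47). Hspbap1, which binds Hspb1, was at 1.94 to 2.01 and 1.29 to 1.41 FPKM (log2 -0.43), and its call was lost with quantile normalisation, cyclic loess and TPM. Hspb6 (-0.41), a small HSP of muscle, Bag5 (-0.38) and Bag4 (-0.25) were lower as deposited and did not pass after centring. Hspb6 and Bag4 also lost their calls without single libraries (Hspb6 without vehicle 1, vehicle 3, PTH 2 or PTH 3, Bag4 without vehicle 1, vehicle 3, PTH 1 or PTH 2; adjusted p up to 0.0842). Bag2 and Bag6 did not pass, at 0.12 and -0.09.

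Hspa9 (mortalin), the mitochondrial HSP70, was at 71.0, 75.6 and 68.2 FPKM with vehicle and at 80.6, 79.1 and 78.8 FPKM with PTH (log2 0.15, adjusted p 0.0341, lost in 8 of 18 alternative fits, among them each without vehicle 1, vehicle 3 or any PTH library, at adjusted p up to 0.101). Hspd1 (HSP60) was at 169, 178 and 171 FPKM with vehicle and 157, 180 and 184 FPKM with PTH, and Hspe1 (HSP10) at 199 to 204 and 201 to 204 FPKM. The log2 differences of this pair, which forms the mitochondrial chaperonin, were 0.01 and 0.00. Hspe1 was called higher after centring (log2 0.13, limma adjusted p 0.0202) and lower with quantile normalisation (log2 -0.10), and Hspd1 was not called after centring. Of 8 mitochondrial chaperone genes, 1 was higher and 3 were lower (Dnaja3, Dnajc11 and Dnajc30), near the 10.8% and 41.0% of all genes. Of 10 genes of mitochondrial protein quality control outside the families, 0 were higher and 5 lower by limma's adjusted p (0 and 6 at an unadjusted p under 0.05), among them Clpx (-0.43), Grpel2 (-0.34) and Htra2 (-0.30); 2 were lower after centring. The shares of all genes called lower were 41.0% and, after centring, 24.0%, so these counts too lie near the background.

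The cytosolic chaperonin CCT/TRiC, which folds actin and tubulin, is built of 8 different subunits, and 8 of its genes were tested. None of Tcp1, Cct2, Cct3, Cct4, Cct5, Cct6a, Cct7 and Cct8 passed limma's test at an adjusted p under 0.05, where 10.8% of all genes were called higher and 41.0% lower. At an unadjusted p under 0.05 the counts were 0 higher and 2 lower. Tcp1 was the highest, at 249.8 to 262 FPKM with vehicle and 233 to 246 FPKM with PTH (log2 -0.11, SE 0.04, limma adjusted p 0.0601), and the PTH libraries lay below the vehicle libraries. Cct5 was also lower without overlap, at 148 to 156 and 138 to 147 FPKM (log2 -0.10), and passed with the library number as a block (adjusted p 0.0327). Cct7 was at 90.5 to 92.2 FPKM with vehicle and 92.5 to 95.9 FPKM with PTH (log2 0.05, SE 0.04) and was called higher after centring. The remaining 5 lay between -0.07 and 0.02 on the log2 scale, with overlapping groups. Over all tested genes, the PTH libraries lay wholly below the vehicle libraries for 47.5% and wholly above for 13.1%. Cct6b, a testis form, was below 1 FPKM.

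Genes that work with CCT and HSP90 gave mixed counts. Of 9 prefoldin and chaperonin cofactor genes tested, 0 were higher and 2 lower by limma's adjusted p, Pdcl3 (-0.23) and Txndc9 (-0.20), with 2 and 4 at an unadjusted p under 0.05; after centring 4 were higher. Of 22 HSP90 and HSP70 cochaperones tested, 1 was higher and 10 lower, against 10.8% and 41.0% of all genes, and after centring 2 and 3, against 18.3% and 24.0%. Unc45a, a myosin chaperone that binds HSP90, was higher by 0.46 on the log2 scale (2.61 to 3.07 FPKM with vehicle, 3.49 to 4.95 FPKM with PTH). Ttc4 was lower by 0.63 and Fkbp5, an HSP90-bound regulator of the glucocorticoid receptor, by 0.49, and Ppid by 0.44. Unc45a lost its call without vehicle 3 (adjusted p 0.0647) or PTH 3 (0.0503). Over the 64 tested genes of all pathway lists outside the chaperone families, 4 were higher and 20 lower, against 10.8% and 41.0% of all genes. After centring the counts were 13 and 6, against 18.3% and 24.0%, and with the library number as a block 7 were higher. The higher count was 2 without vehicle 1, 1 without PTH 2 and 0 without vehicle 3 or PTH 3.

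Of the small HSPs, Hspb8 was at 45.1, 37.0 and 39.0 FPKM with vehicle and at 37.7, 29.9 and 31.5 FPKM with PTH. Hspb8, the partner of BAG3 in chaperone-assisted autophagy, thus had lower values in each PTH library than in the vehicle library of the same number (log2 -0.29, limma adjusted p 0.0613), and it was called lower with the number as a block (adjusted p 0.000937). Hspb11, better known as the intraflagellar transport protein IFT25, did not pass (log2 0.09). The genes below a mean of 1 FPKM were Hspa1a, Hspa1l, Hspb2, Hspb7, Cct6b, Dnajb5, Dnajc12 and Dnajc22, and they were not tested as genes. They were at 0.0828 to 1.31 FPKM in all libraries.

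In FPKM, which is per transcript length, the highest chaperone genes were Hsp90ab1, Hspa8, Hsp90b1 and Hspa5. Together these 4 made up 45.2% to 45.7% of the summed FPKM of the 77 genes in the vehicle libraries and 47.1% to 47.6% in the PTH libraries. The sum itself was 5286 to 5473 FPKM with vehicle and 5658 to 5877 FPKM with PTH. The groups did not overlap, and the exact two-sided permutation test gave p = 0.1, the smallest possible. As a share of each library's total FPKM without genes whose symbols begin with Mir or Snor, the 77 genes made up 0.969% to 1.152% with vehicle and 1.151% to 1.290% with PTH, and the groups overlapped. By family, the HSP110 sum was 108.9 to 118.9 FPKM with vehicle and 183.6 to 201.2 FPKM with PTH, while the CCT sum was 1122 to 1162 and 1062 to 1139 FPKM and the DNAJC sum 472 to 487 and 433 to 438 FPKM.

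How the small differences stood depended on the scaling of the libraries. Of the 11 higher and 16 lower calls, 7 and 1 were kept under all of centring, quantile normalisation, cyclic loess and TPM. Dnaja3, Dnajc7, Dnajc30, Hspa12b and Hsp90b1 lost their calls with TPM alone. The totals used for TPM included genes whose symbols begin with Mir or Snor. Library totals were 618221 to 853916 FPKM with those genes and 455561 to 551259 FPKM without them. Whether those genes decided the calls lost with TPM was not tested. Bag4 and Dnajc14 turned to 0.03 and 0.00 on the log2 scale with cyclic loess, without a call. Log2 differences of Hsph1 lay between 1.71 and 1.87 under these scalings and those of Dnajc16 between -0.80 and -0.56.

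**Figure D5:**
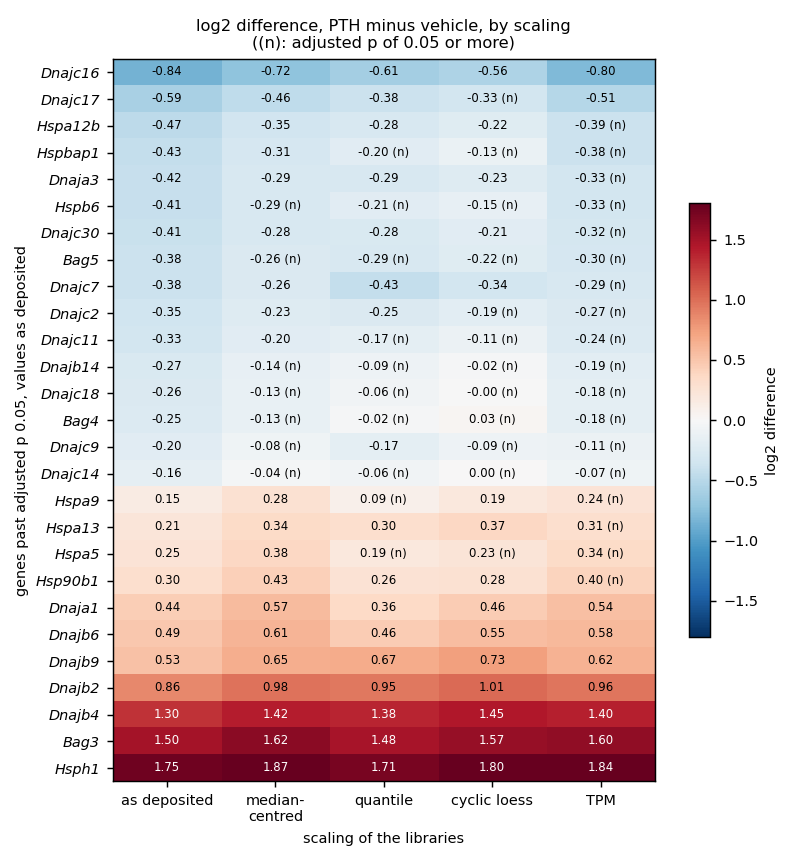
Log2 difference, PTH minus vehicle, of the 27 chaperone genes called in the fit of values as deposited, under 5 scalings of the libraries; colour gives the size and (n) marks values that did not pass an adjusted p of 0.05. The 7 lowest lines, Dnaja1 to Hsph1, and the top line, Dnajc16, carry no such mark.

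Promoter windows were found in the RefSeq table for 62 of the 77 genes. A gene was counted when any of its windows held a match. The full heat shock element of 3 alternating units was in 4 of these genes, or 6.45%. The shares were 0.662% of all 27025 symbols with a window and 0.589% of 8153 tested genes. The 4 are Hsph1 and Dnajb6, which were higher, and Hspd1 and Hspe1, which were not, although Hspe1 was called higher after centring. The windows of Hspd1 and Hspe1 overlap on opposite strands, so the same stretch is counted for each of them. The 2-unit match was in 18 genes (29.0%, against 17.0% of all symbols and 14% of tested genes). Of these, 5 were among the 9 higher genes with a window, 1 among the 11 lower genes and 11 among the 37 that did not pass. The complete TGACGTCA element was in 1 gene, Dnajc27 (1.61%, against 2.03% and 3.79%), which did not pass. Its core TGACG, on either strand, was in 32 genes (51.6%, against 23.0% and 37.3%), among them 6 of the 9 higher and 6 of the 11 lower genes. These are letter matches on both strands in a short window and were not tested against the changes.

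In the authors' deposited table, the group called q2 behaves as PTH: of 808 transcripts that differed by more than 1 on the log2 scale between the library columns, 99.75% had q2 against q1 in the PTH direction. At a deposited q-value under 0.05, the authors' deposited table has 16 of 261 chaperone transcripts higher and 5 lower, against 3.90% and 3.71% of all transcripts. The authors' deposited table gives ENSMUST00000074846 of Hsph1 a log2 fold change of 2.06 (q 0.00112) and Bag3 one of 1.68. In the authors' deposited table, ENSMUST00000132412 of Hsph1 has a q-value of 0.586 and does not pass. The authors' deposited table further lists Dnajc12 as higher (0.868) and Hspb7 as lower (-0.805), genes whose mean here was below 1 FPKM, and Hspb1 as higher (0.417). The authors' fold changes are centred differently from the library columns. Over 18138 transcripts above 1 FPKM in every library, the median log2 difference is 0.03 in the authors' deposited table and -0.13 from the library columns. The reason was not tested.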

How the data were processed

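The authors extracted RNA by TRIzol, prepared stranded mRNA libraries, and obtained FPKM per transcript from Cufflinks, per the labels' protocols. The submitters' processing notes name mm10. The aligner, tool versions, annotation and use of strand are not stated there or in the labels. Each deposited log2 fold change, p-value and q-value per transcript is the authors', per the file headers.

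FPKM was summed per symbol. Genes with a mean of at least 1 FPKM over the 6 libraries were tested with limma 3.58.1 (R 4.3.3; lmFit, eBayes with trend) on log2(FPKM + 0.5), two-sided, without a block, with Benjamini-Hochberg adjustment over all tested genes and a threshold of 0.05; this scale understates changes of low genes. Transcripts were tested likewise, and unequal change with diffSplice. All transcript counts keep transcripts that reached the minimum only through a single group. Scripts were tested on simulated data. There diffSplice called more unchanged genes than its threshold allows. A limma test of each transcript against the sum of the others did not, but its simulated spreads were smoothed across transcripts and those for diffSplice were not. The simulations therefore do not compare these tests on equal terms. The second test was added after the data were seen. Tables used Python 3.11.15 and pandas 2.3.3, plots matplotlib 3.10.9. Coordinates are GENCODE M21's (GRCm38, the assembly of mm10), where 245 of 261 chaperone transcripts were found.

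Libraries of the same number deviated together (correlations 0.42, 0.28 and 0.28). All other pairs were below 0, but deviations from a group mean sum to 0 within the group, so this adds little. The numbers may pair the libraries, which is seen in the values alone and is not stated in the labels.

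Alternatives were centring, quantile, cyclic loess, TPM, pseudocounts of 0.1 and 1, a minimum of 5 or none, the block, single libraries or both number-1 libraries left out, and the highest transcript per symbol. Named genes were the 10 largest rises and falls without overlap, the highest gene of each family, all tested HSP110, HSP70, HSP90 and CCT genes, all Hsph1 transcripts, diffSplice calls, and up to 3 genes per list; others were chosen after their values were seen. The members and lists were chosen with earlier results of these data known.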

Additional observations from a re-analysis of the deposited data

How the results depend on the processing

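Depth is unknown, so precision rests on 3 libraries per group, and small differences depend on how libraries are scaled; the cause was not tested. Of the 18 alternatives, Hsph1 kept its call in each, with log2 differences of 1.69 to 1.83 when 1 library was left out. Chaperone genes higher (11) were 22 with centring, 17 with cyclic loess, 7 with TPM and 9 to 10 with 1 library left out; those lower (16) were 9, 5, 2 and 13 to 18. All genes higher (1252) were 2131 with centring, 2345 with cyclic loess and 1071 to 1178 with 1 library left out; all genes lower (4765) were 2792, 2051 and 3936 to 4455, with 3096 by quantile normalisation and 1158 by TPM. Chaperone transcripts higher (22) were 12 with TPM and 13 to 19 with 1 library left out; those lower (22) were 12 with centring, 10 with cyclic loess, 3 with TPM, 10 without both number-1 libraries and 12 to 16 with 1 left out. Pathway genes outside the families higher (4) were 13 with centring, 11 with cyclic loess, 1 with TPM, 2 without both number-1 libraries, 0 with the highest transcript alone and 0 to 4 with 1 left out; those lower (20) were 6, 9 and 1 with the first 3 settings and 14 to 24 with 1 left out. Genes with unequal transcripts (3) were 1 with TPM, 1 with a minimum of 5 FPKM (not Hsph1), 5 with no minimum, 1 to 4 with 1 left out, and 1 with each transcript against the sum of the others, an alternative chosen after the data were seen.

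With the replicate number as a block, chaperone genes were 15 higher and 22 lower, all genes 1605 and 5811, chaperone transcripts 26 and 30, pathway genes 7 and 28, and genes with unequal transcripts 4; it ended no call of a chaperone gene. With block and centring together, chaperone genes were 31 higher and 13 lower, all genes 2890 and 3593, chaperone transcripts 40 and 13, and pathway genes 21 and 9.

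Called chaperone genes other than Hsph1 kept sign and call in 386 values, lost the call in 77 (19 genes) and changed sign in 2, both with cyclic loess: Bag4 (0.0289) and Dnajc14 (0.0010). The other changes of sign were of 30 genes that did not pass as deposited. For 13 of them the most distant value of opposite sign was 0.0856 for Dnaja2, 0.1714 for Dnaja4, -0.0507 for Dnajb1, -0.0148 for Dnajb11, 0.0243 for Dnajc1, 0.0122 for Dnajc5, -0.0311 for Dnajc8, 0.0099 for Dnajc10, 0.0102 for Dnajc13, 0.0379 for Dnajc15, 0.0295 for Dnajc19, 0.1422 for Dnajc24 and -0.0769 for Hspd1, none with a call. Of the other 17, Hspe1 was called lower with quantile normalisation and Hspa14 higher with block and centring, and the rest were not called. Their values were, with TPM, Bag6 (0.0001), Cct3 (0.0214), Cct4 (0.0682), Cct6a (0.0821), Cct8 (0.0183), Hsp90aa1 (0.0164), Hspa14 (0.0839) and Hspa4l (0.0793). With centring, alone or with the block, they were Bag6 (0.0315), Cct3 (0.0525), Cct4 (0.0993), Cct5 (0.0229), Cct6a (0.1131), Cct8 (0.0494), Hsp90aa1 (0.0474), Hspa14 (0.1157), Hspa4l (0.1174), Hspbp1 (0.0313) and Tcp1 (0.0141). With cyclic loess they were Cct6a (0.0033), Hsp90ab1 (-0.0020), Hspa14 (0.0980), Hspa4l (0.2649) and Hspbp1 (0.1213). With quantile normalisation they were Cct2 (-0.0599), Cct7 (-0.0367), Hspa14 (0.0197), Hspa4 (-0.0309), Hspa4l (0.2234), Hspbp1 (0.0516) and Hspe1 (-0.1048). Without both number-1 libraries they were Cct4 (0.0051), Cct6a (0.0296), Hspa14 (0.0118), Hspa4l (0.0023) and Hspe1 (-0.0109), and with the highest transcript alone Cct4 (0.0117) and Hspa4 (-0.0028). With 1 library left out, values spanned 0 for Cct2 (-0.0176 to 0.0668), Cct6a (-0.0454 to 0.0484), Hspa14 (-0.0279 to 0.0141), Hspa1b (-0.0001 to 0.1894), Hspa4l (-0.0696 to 0.0730) and Hspe1 (-0.0032 to 0.0140).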
